A study of Mus musculus with 8 samples.

Results

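YAP1 and TAZ are transcriptional coactivators that carry mechanical and cell contact signals into the nucleus. The kinases LATS1 and LATS2, at the end of the Hippo kinase cascade, phosphorylate both proteins and keep them in the cytoplasm, and without that mark they enter the nucleus and act through DNA-binding TEAD factors. In melanoma cells, YAP and TAZ are known for roles in growth, invasion and drug tolerance. Because the control acts on the protein, the transcript of Yap1 itself need not follow the activity, which transcripts of target genes such as Ccn1 and Ccn2 are commonly used to read out. The 10 genes described here were taken by name from the 57353 genes of an expression table. They and the gene lists used below were chosen with earlier results of these data known. Shares and medians over them are therefore a description. The 5 targets are Axl, Crim1, Ccn2, Ccn1 and Ankrd1. The 5 pathway components are Yap1, Tead1, Lats2, Amotl2 and Ajuba, of which Lats2, Amotl2 and Ajuba are also known as targets.

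The table came from RNA sequencing of B16-OVA cells, a mouse melanoma line of B16F10 origin that carries ovalbumin as a model antigen, labelled wild type. HMF cells (4 libraries) took up rod-shaped magnetic micromotors for 24 h and then received a high-frequency magnetic field. Control cells (4 libraries) were untreated, and both were collected at 6 h. No library received micromotors without the field or the field without micromotors, so the effects of the 2 cannot be told apart. The labels do not state whether replicate libraries were grown as separate cultures, and p-values therefore rest on library-to-library spread that may be technical.

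Total counts ran from 14159514 to 19295358 in HMF and from 13973961 to 17497913 in Control. All 7 defining markers of pigmented melanoma cells were measured (summed level 12417 to 15226 CPM in HMF and 16432 to 18436 CPM in Control). Of these, 4 (Mitf, Tyr, Tyrp1 and Dct) were called lower in HMF, 57.1% beside 13.0% of all tested genes. The groups overlapped for Tyr. Of the markers of other cell types, all 4 of keratinocytes and 5 of 6 of T and NK cells had no count, and the 4 endothelial markers summed to at most 1.30 CPM in HMF and 0.507 CPM in Control. Macrophage markers summed to 14.2 to 15.4 CPM in HMF and 8.10 to 11.5 CPM in Control, nearly all from Cd68, a lysosomal gene not restricted to macrophages, while the defining genes Adgre1 and Itgam were at 0. Of the 5 fibroblast markers, Col1a2 led a sum of 8.15 to 12.1 CPM in HMF and 14.1 to 29.1 CPM in Control.

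Promoter sequences are shown because TEAD factors bind a short motif, GGAATG on either strand, through which YAP and TAZ reach their targets. RefSeq windows of 300 bases (250 before to 50 after an annotated start, build GRCm38.p6) were at hand for 8 of the 10 genes, with 2 windows for Lats2. The motif was present in windows of all 8 genes, in 8 of the 9 windows, against 14.7% of the 32851 windows of all genes. Counted from 0 at the annotated start, its first base lay at -233 in Axl, -79 in Crim1, -103 in Ccn1, -65 in Amotl2 and -141 in Yap1, and at -186 and -164 in Ajuba. Ankrd1 also held it at 2 places, -210 and -123. In one Lats2 window it lay just past the start, at position 4, and the other had none. Neither the AP-1 motif TGANTCA (7.81% of all windows, both strands) nor the CArG box bound by serum response factor (1.63%) was in any of the 9 windows. Such a match is a stretch of letters and shows no binding. The windows of 5 genes whose levels are described next follow, gene strand, with the TEAD motif in capitals.
Axl promoter, chr7:25788684-25788983, minus strand: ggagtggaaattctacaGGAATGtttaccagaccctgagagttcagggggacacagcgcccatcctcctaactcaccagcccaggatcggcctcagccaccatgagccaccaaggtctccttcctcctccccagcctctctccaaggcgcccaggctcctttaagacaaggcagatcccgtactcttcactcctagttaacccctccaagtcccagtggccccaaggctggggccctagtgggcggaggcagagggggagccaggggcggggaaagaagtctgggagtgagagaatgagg
Crim1 promoter, chr17:78199998-78200297, plus strand: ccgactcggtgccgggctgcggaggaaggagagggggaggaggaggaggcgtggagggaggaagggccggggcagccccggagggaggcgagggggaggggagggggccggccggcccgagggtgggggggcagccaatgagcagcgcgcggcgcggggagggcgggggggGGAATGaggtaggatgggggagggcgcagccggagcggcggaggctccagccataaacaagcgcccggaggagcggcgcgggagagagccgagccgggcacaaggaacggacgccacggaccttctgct
Ccn1 promoter, chr3:145649936-145650235, minus strand: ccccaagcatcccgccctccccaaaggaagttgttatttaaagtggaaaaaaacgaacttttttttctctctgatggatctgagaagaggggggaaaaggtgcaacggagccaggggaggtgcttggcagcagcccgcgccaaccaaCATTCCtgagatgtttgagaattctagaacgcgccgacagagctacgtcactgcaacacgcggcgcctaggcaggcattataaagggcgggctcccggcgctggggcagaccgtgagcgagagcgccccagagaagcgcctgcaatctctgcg
Ajuba promoter, chr14:54577612-54577911, minus strand: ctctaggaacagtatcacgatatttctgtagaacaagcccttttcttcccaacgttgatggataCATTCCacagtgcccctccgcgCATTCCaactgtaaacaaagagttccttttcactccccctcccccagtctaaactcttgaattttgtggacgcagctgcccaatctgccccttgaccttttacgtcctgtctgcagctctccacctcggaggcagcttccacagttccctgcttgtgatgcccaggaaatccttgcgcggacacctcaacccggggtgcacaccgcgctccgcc
Amotl2 promoter, chr9:102717554-102717853, plus strand: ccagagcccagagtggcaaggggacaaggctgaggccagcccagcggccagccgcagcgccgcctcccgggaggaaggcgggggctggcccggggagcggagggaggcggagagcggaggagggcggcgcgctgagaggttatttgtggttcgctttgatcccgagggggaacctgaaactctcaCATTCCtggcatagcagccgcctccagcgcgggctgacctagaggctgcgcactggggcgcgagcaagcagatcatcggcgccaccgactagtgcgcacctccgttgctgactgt

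Per length, Axl had the highest mean of the 10 transcripts in HMF, with 45.9 ± 2.0 FPKM (SD, n = 4). In Control its mean was the fourth, with 14.7 ± 1.45 FPKM. In HMF it was followed by Ccn1 (33.7 ± 19.5 FPKM), Ajuba (26.6 ± 7.72), Yap1 (20.8 ± 0.734), Amotl2 (10.4 ± 2.92), Crim1 (9.11 ± 1.30), Tead1 (4.73 ± 0.723), Lats2 (2.93 ± 0.975) and Ccn2 (1.32 ± 0.832). In Control the order of FPKM levels was Ccn1 (24.0 ± 10.8), Yap1 (20.1 ± 0.572), Ajuba (19.3 ± 3.73), Axl, Amotl2 (14.6 ± 2.04), Crim1 (6.34 ± 0.611), Tead1 (6.24 ± 1.11), Lats2 (2.86 ± 0.376) and Ccn2 (0.557 ± 0.245). The libraries of most neighbours in these orders overlapped: in Control, Axl (13.4 to 16.6 FPKM) and Amotl2 (12.9 to 17.0 FPKM) could not be ranked, nor could Crim1 and Tead1. In HMF, Axl (44.0 to 48.7 FPKM) and Ccn1 (19.4 to 61.7 FPKM) could not be ranked either. Control levels of Lats2 (2.53 to 3.35 FPKM) and Ccn2 (0.350 to 0.874 FPKM) did not overlap. Ankrd1 was at the bottom of both orders.

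Among the targets, Axl, Crim1 and Ccn2 rose in HMF, while Ccn1 did not pass and Ankrd1 was not expressed at a testable level. None of the 5 components passed at an adjusted p below 0.05 (edgeR quasi-likelihood test, Benjamini-Hochberg over all 15082 tested genes). The 3 calls among 9 tested genes (33.3%) stand beside 26.7% of all tested genes called in either direction, which is near that share. All 3 were rises, and of all tested genes 13.7% were called higher and 13.0% lower in HMF. Whether 3 rises among 9 genes exceed that share was not tested. DESeq2 called 4 of the 9, with Ajuba besides (adjusted p = 0.0409), where it called 28.2% of all tested genes. The median log2 fold change was 0.94 over the 4 tested targets and 0.09 over the 5 components, beside -0.02 over all tested genes. The difference between targets and components was not tested.

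**Figure D1:**
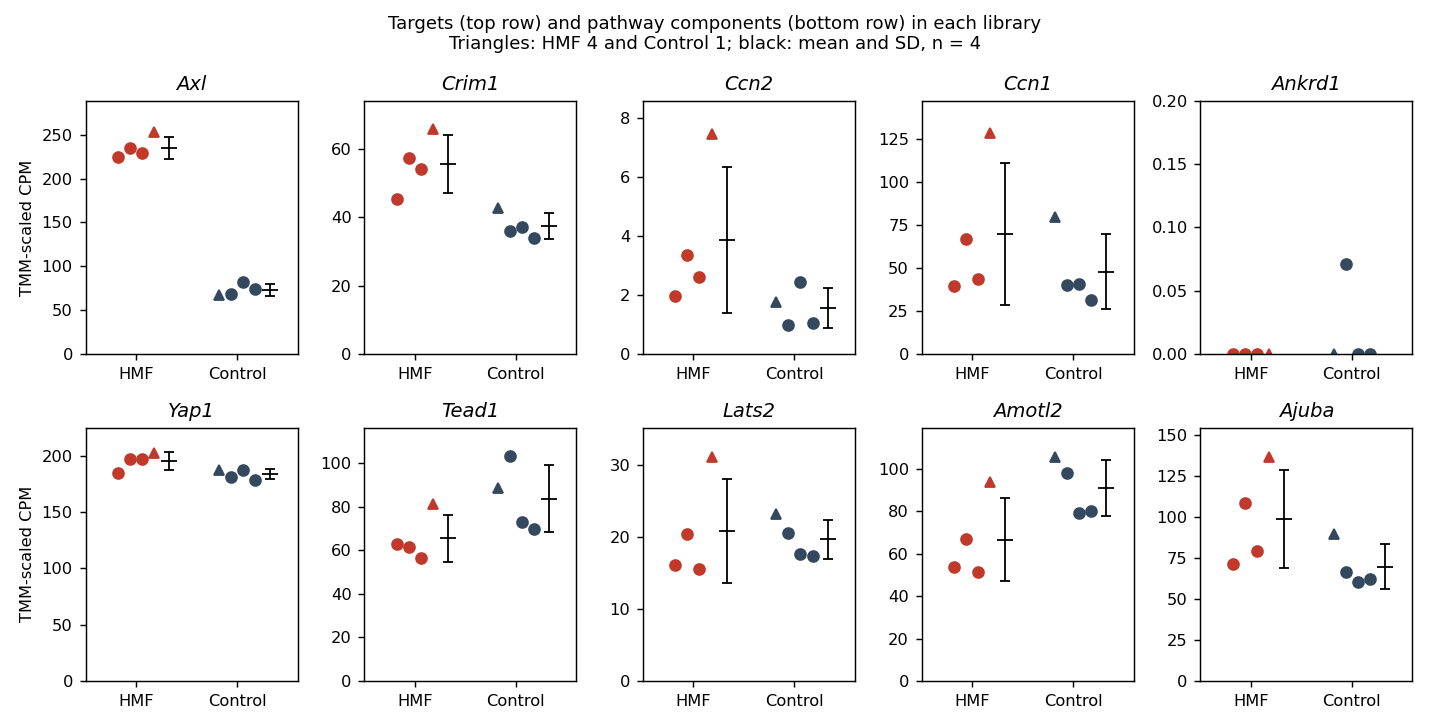
TMM-scaled CPM (y axes, from 0) of the 5 targets, top row, and the 5 components, bottom row, in the 4 HMF and 4 Control libraries; points are libraries, triangles are HMF 4 and Control 1, and black marks give mean and SD. The groups are apart for Axl and Crim1, and HMF 4 is the top HMF point in every panel except that of Ankrd1.

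Axl encodes a receptor tyrosine kinase of the TAM family, known in melanoma for invasive and drug-tolerant states and in mouse myeloid cells as induced by interferon. Its level was 224, 234, 229 and 253 CPM in HMF 1 to 4, against 67.0, 68.6, 81.7 and 74.2 CPM in Control 1 to 4. In bulk RNA, more cells with a transcript and more of it per cell cannot be told apart. The lowest HMF library lay far above the highest Control library, and the spread within each group was narrow. Axl rose by 1.69 ± 0.08 on the log2 scale (SE, adjusted p = 5.03e-08), or 3.23-fold, a call made under each of the 17 other settings tried. The other TAM receptor genes did not pass, with Tyro3 at a log2 fold change of -0.27 (adjusted p = 0.0983) and Mertk at -0.12 (adjusted p = 0.671). Of the TAM ligands, Gas6 was below the count filter and Pros1 was at 0.05 (adjusted p = 0.737).

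Crim1 encodes a membrane protein with cysteine-rich repeats that binds bone morphogenetic proteins. It measured 45.4, 57.3, 54.1 and 65.8 CPM in HMF 1 to 4, against 42.7, 36.1, 37.1 and 34.1 CPM in Control 1 to 4. The groups did not overlap, although HMF 1 and Control 1 lay close. Crim1 rose by 0.57 ± 0.11 on the log2 scale (SE, adjusted p = 0.00323), and it was called under each of the 17 other settings. Fez2 overlaps Crim1 on the opposite strand, and whether the counting used strand is not stated in these sources. The count of Fez2 was 387 to 435 in HMF and 295 to 438 in Control, and its log2 fold change of 0.18 did not pass (adjusted p = 0.2). Axl and Crim1 were the 2 genes of the 9 whose groups did not overlap, which held for 29.1% of all tested genes.

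Ccn1 and Ccn2 encode secreted matrix-associated proteins of the CCN family and are widely used reporters of YAP and TAZ activity. Ccn2 was scarce, with counts of 29, 49, 37 and 140 in HMF 1 to 4 and 30, 14, 40 and 19 in Control 1 to 4. Scaled, these were 1.99, 3.35, 2.62 and 7.49 CPM in HMF, against 1.77, 0.995, 2.44 and 1.07 CPM in Control. HMF 4 was the highest library and HMF 1 fell inside the Control range. The rise was 1.32 ± 0.43 on the log2 scale (SE, adjusted p = 0.0431), and it was not called without HMF 4 (0.75, adjusted p = 0.112) or without any of HMF 2, Control 1, Control 2 and Control 4 (1.16 to 1.38, adjusted p = 0.07 to 0.113), in all in 9 of the 17 other settings. Gm15270, which overlaps Ccn2 on the opposite strand, had 1 to 7 counts in HMF and 0 to 7 in Control. The summed markers of fibroblasts, a cell type rich in Ccn2, lay lower in every HMF library than in any Control library. Col1a2 led that sum, and the fibroblast markers Dcn and Lum were below the count filter. Whether such cells had a part in the Ccn2 level was not tested.

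Ccn1 was more abundant, at 39.7, 66.8, 43.4 and 129 CPM in HMF 1 to 4, against 79.7, 40.0, 40.4 and 31.2 CPM in Control 1 to 4. The groups overlapped widely, with HMF 4 and Control 1 as the highest libraries of their groups. Ccn1 did not pass, at 0.55 ± 0.38 on the log2 scale (SE, adjusted p = 0.322), with a 95% interval of -0.29 to 1.38. It was 0.06 without HMF 4 and 0.91 without Control 1, neither called. Ankrd1, which encodes a nuclear and sarcomeric ankyrin repeat protein of muscle, had no count in any HMF library and 1 count in Control 2. Those counts were too few for a test.

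Of the CCN paralogs, Ccn4 fell by 0.64 ± 0.19 on the log2 scale (SE, adjusted p = 0.0287), with 3.33 to 4.99 CPM in HMF and 5.33 to 8.16 CPM in Control. The call of Ccn4 was lost without HMF 1, HMF 3, Control 1 or Control 4. Ccn6 did not pass (-0.83, adjusted p = 0.0735), and Ccn3 and Ccn5 were below the count filter. The muscle ankyrin repeat paralog Ankrd2 fell by 0.79 ± 0.20 (SE, adjusted p = 0.0128), with 1.91 to 3.53 CPM in HMF and 4.62 to 6.15 CPM in Control, while Ankrd23 did not pass (-0.35, adjusted p = 0.262).

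Yap1, the coactivator itself, was the steadiest of the 9. It measured 184, 198, 197 and 203 CPM in HMF 1 to 4, against 187, 181, 188 and 179 CPM in Control 1 to 4. The groups overlapped. Yap1 did not pass, at 0.09 ± 0.05 on the log2 scale (SE, adjusted p = 0.247), with a 95% interval of -0.03 to 0.21.

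Tead1, a DNA-binding partner of YAP1, measured 62.8, 61.4, 56.5 and 81.0 CPM in HMF 1 to 4, against 88.4, 103, 73.0 and 69.9 CPM in Control 1 to 4. HMF 4 lay inside the Control range and the other HMF libraries below it. The log2 fold change of -0.35 ± 0.14 (SE) did not pass (adjusted p = 0.0855). Without HMF 4 it was -0.47 and passed (adjusted p = 0.013), and with library size alone as the scaling it was -0.40 and passed (adjusted p = 0.0462).

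Amotl2 encodes an angiomotin family scaffold that binds YAP1 and activates LATS kinases. It measured 53.7, 67.2, 51.5 and 94.0 CPM in HMF 1 to 4, against 106, 98.1, 79.0 and 80.3 CPM in Control 1 to 4. Here too HMF 1 to 3 lay below every Control library and HMF 4 inside the Control range. The log2 fold change of -0.44 ± 0.18 (SE) did not pass (adjusted p = 0.0876), and without HMF 4 it was -0.66 and passed (adjusted p = 0.00164).

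Ajuba encodes a LIM domain protein that binds and restrains LATS kinases. It measured 71.1, 109, 79.0 and 136 CPM in HMF 1 to 4, against 89.9, 66.4, 60.2 and 62.0 CPM in Control 1 to 4. HMF 1 and HMF 3 lay inside the Control range, which Control 1 widened. The log2 fold change of 0.51 ± 0.20 (SE) did not pass (adjusted p = 0.0809) and passed without HMF 1 (0.64, adjusted p = 0.0302) or without Control 1 (0.66, adjusted p = 0.0347). Without HMF 4 it was 0.31 and did not pass (adjusted p = 0.177).

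Lats2, one of the 2 kinases that phosphorylate YAP1 directly, measured 16.2, 20.4, 15.6 and 31.1 CPM in HMF 1 to 4, against 23.1, 20.6, 17.7 and 17.4 CPM in Control 1 to 4. The groups overlapped. Its change of 0.09 ± 0.20 on the log2 scale (SE, adjusted p = 0.785), with a 95% interval of -0.36 to 0.54, turned to -0.18 without HMF 4 (adjusted p = 0.374).

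**Figure D2:**
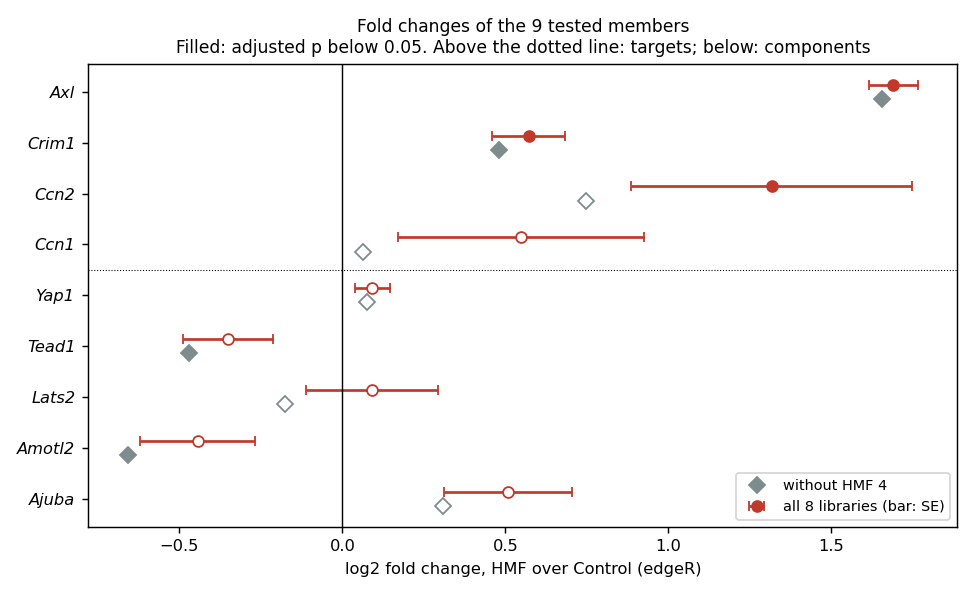
Log2 fold changes, HMF over Control, of the 9 tested genes (x axis), from all 8 libraries (circles, bars are SE) and without HMF 4 (diamonds); filled symbols have an adjusted p below 0.05. Axl and Crim1 are filled both ways, Ccn2 only with HMF 4, and Tead1 and Amotl2 only without it.

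HMF 4 was the highest HMF library for all 9 tested genes, as it was for 33.9% of all tested genes. Its CPM was 2.82 times the mean of HMF 1 to 3 for Ccn2, 2.57 times for Ccn1, 1.79 times for Lats2, 1.64 times for Amotl2 and 1.58 times for Ajuba. Over all tested genes the median of that ratio was 1.0 and the 95th percentile 1.503. The ratio was lower for Tead1 (1.34) and Crim1 (1.26), and close to 1 for Axl (1.104) and Yap1 (1.05). Control 1 was the highest Control library for 5 of the 9 genes, against 29.7% of all tested genes, with a ratio to the other Control libraries of 2.14 for Ccn1 and 1.43 for Ajuba. HMF 4 also had the largest total count (19295358). Its mitochondrial share was the largest too, at 4.45%, against 2.47% to 3.57% in HMF 1 to 3 and 3.17% to 4.35% in Control. The part of both in these levels was not tested. With HMF 4 left out, the median log2 fold change was 0.61 over the targets and -0.18 over the components, with 2 targets higher and 2 components lower among 24.9% of all tested genes called.

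**Figure D3:**
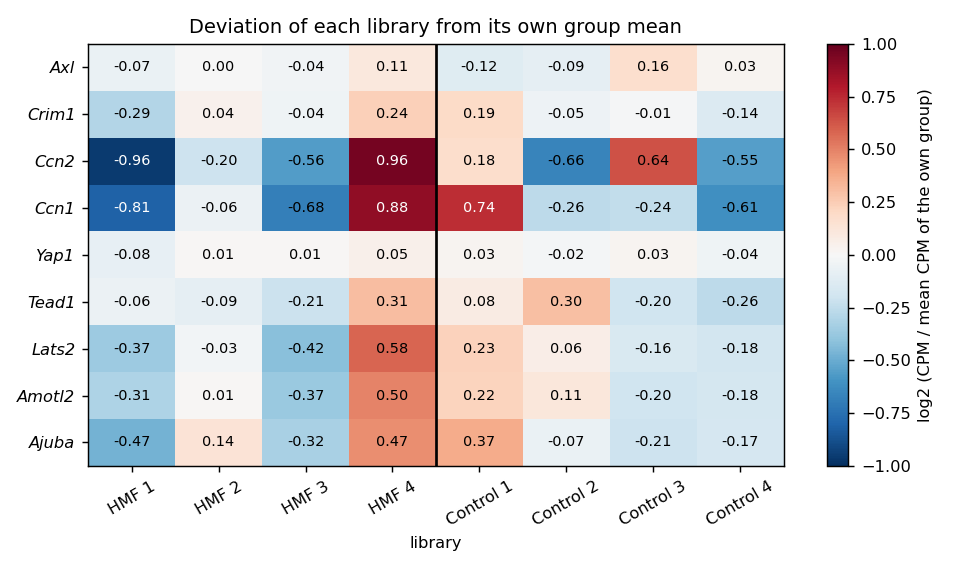
Log2 of each library's CPM over the mean of its own group (colour and printed number) for the 9 tested genes (rows) in the HMF libraries, left of the line, and the Control libraries, right of it. The HMF 4 column is positive throughout, from 0.05 in Yap1 to 0.96 in Ccn2, and HMF 1 and HMF 3 are below their mean for the same strongly spread genes.

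Averaged over the 4 tested targets, log2 CPM was 0.53 to 0.96 below the average of the 5 components in the HMF libraries, against 1.46 to 2.05 below it in the Control libraries. The ranges did not overlap with or without HMF 4, since HMF 1 to 3 lay at -0.96, -0.76 and -0.76. Axl (1.69) and Ccn2 (1.32) had the largest log2 fold changes of the 4 targets. Ccn2 was not called in 9 of the 17 other settings. How far the separation depends on Axl and Ccn2 was not tested. Such averages were not formed for other sets of genes, so no background stands beside this non-overlap.

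Among the nuclear partners of the pathway, Wwtr1, the paralog of Yap1, and the Tead1 paralogs Tead2 and Tead4 fell in HMF, while Tead3 did not pass. Wwtr1, which encodes TAZ, measured 85.9, 83.2, 84.4 and 75.7 CPM in HMF 1 to 4, against 98.4, 98.3, 96.7 and 102 CPM in Control 1 to 4. Every HMF library lay below every Control library, and Wwtr1 fell by 0.26 ± 0.06 on the log2 scale (SE, adjusted p = 0.00641). Tead2 fell by 0.40 ± 0.08 (adjusted p = 0.00523), with 79.2 to 102 CPM in HMF and 113 to 135 CPM in Control. Tead4 fell by 0.37 ± 0.08 (adjusted p = 0.00812), with 15.2 to 17.4 CPM in HMF and 18.98 to 21.4 CPM in Control. These 3 calls were kept under each of the 17 other settings. Tead3 (-0.24, adjusted p = 0.167), Vgll3 (-0.22) and Vgll4 (-0.09), of which the last 2 encode other TEAD cofactors, did not pass. In all, 3 of 8 tested genes of this list fell (37.5%, beside 13.0% lower among all tested genes) and none rose, with a median log2 fold change of -0.25, and Vgll1 and Vgll2 had no count.

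In the Hippo kinase core, 4 of 22 tested genes rose and 3 fell, with a median log2 fold change of 0.02. The share called, 31.8%, is near the 26.7% of all tested genes. Lats1, the paralog of Lats2, rose by 0.20 ± 0.05 on the log2 scale (SE, adjusted p = 0.0121), with 89.2 to 92.3 CPM in HMF and 76.5 to 79.9 CPM in Control. The LATS cofactor gene Mob1b rose by 0.28 ± 0.08 (adjusted p = 0.0269), the upstream kinase gene Taok3 by 0.27 ± 0.07 (adjusted p = 0.0185) and Stk38l, which encodes a LATS-related kinase, by 0.51 ± 0.12 (adjusted p = 0.00812). The upstream kinase genes Map4k1 and Map4k2 fell by 0.60 ± 0.11 (adjusted p = 0.00225) and 0.50 ± 0.11 (adjusted p = 0.00805), and Map4k4 by 0.23 ± 0.07 (adjusted p = 0.0289). The call of Mob1b was lost without HMF 1, HMF 3, Control 3 or Control 4, that of Taok3 without HMF 1 or Control 4, and that of Map4k4 without any single library other than HMF 4 and Control 3. Counting every one of the 17 other settings, Mob1b was not called in 8, Map4k4 in 7, Taok3 in 6 and Lats1 in 3 (adjusted p = 0.0606 to 0.0677 for Lats1). The central kinase genes Stk3 (0.13) and Stk4 (0.06), their scaffold gene Sav1 (0.06) and the upstream regulator gene Nf2 (-0.11) did not pass.

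Among 20 tested junction and scaffold regulators, 2 rose and 2 fell, a share below the 26.7% of all tested genes, with a median log2 fold change of -0.01. Both rises were in genes of 14-3-3 proteins, which hold phosphorylated YAP1 in the cytoplasm and bind many other partners. Sfn, which encodes 14-3-3 sigma, measured 28.5, 33.8, 30.9 and 38.6 CPM in HMF 1 to 4, against 13.2, 13.6, 10.7 and 10.9 CPM in Control 1 to 4. The groups were far apart, and Sfn rose by 1.45 ± 0.12 on the log2 scale (SE, adjusted p = 7.37e-06). Ywhag rose by 0.57 ± 0.07 (adjusted p = 1.88e-04), while the other 5 tested 14-3-3 genes, from -0.12 in Ywhab to 0.15 in Ywhaz, did not pass. Ctnna1, which encodes the adherens junction protein alpha-catenin, fell by 0.35 ± 0.06 (adjusted p = 0.00136), with 168 to 184 CPM in HMF and 214 to 243 CPM in Control. The paralogs of Amotl2 and Ajuba did not pass, with Amot at -0.37, Amotl1 at -0.15, Limd1 at -0.00179 and Wtip at -0.08.

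A YAP-TAZ target signature of 22 genes, recalled from pan-cancer work, holds 7 of the 10 genes above (not Yap1, Tead1 or Ajuba). Of its 15 tested genes 5 rose and none fell, 33.3% beside 26.7% of all tested genes (13.7% higher in HMF), with a median log2 fold change of 0.14. Beyond Axl, Crim1 and Ccn2 the rises were in Gadd45a, a DNA damage response gene that other pathways also induce, and in Tgfb2, which encodes a transforming growth factor. Gadd45a measured 10.3, 16.002, 12.5 and 21.7 CPM in HMF 1 to 4, against 12.1, 7.75, 8.85 and 7.43 CPM in Control 1 to 4, a rise of 0.75 ± 0.23 on the log2 scale (SE, adjusted p = 0.0317). HMF 4 and Control 1 were again the highest of their groups, and the call was lost without HMF 4 (0.52, adjusted p = 0.0627) and without HMF 2, Control 2, Control 3 or Control 4, in all in 8 of the 17 other settings. Tgfb2 rose by 0.47 ± 0.09 (adjusted p = 0.00374), with 13.4 to 15.0 CPM in HMF and 9.40 to 10.8 CPM in Control, under each of the 17 other settings too. Myof, which encodes a membrane repair protein, had 190 CPM in HMF 4, against 95.9 to 123 CPM in HMF 1 to 3 and 87.7 to 130 CPM in Control, and did not pass (0.29, adjusted p = 0.329). Without the 7 genes shared with the 10 above, 2 of 9 tested signature genes rose (Gadd45a and Tgfb2, 22.2%), with a median of 0.13. Of all 22 signature genes, 7, among them Ankrd1, Igfbp3 and Nt5e, were below the count filter.

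**Figure D4:**
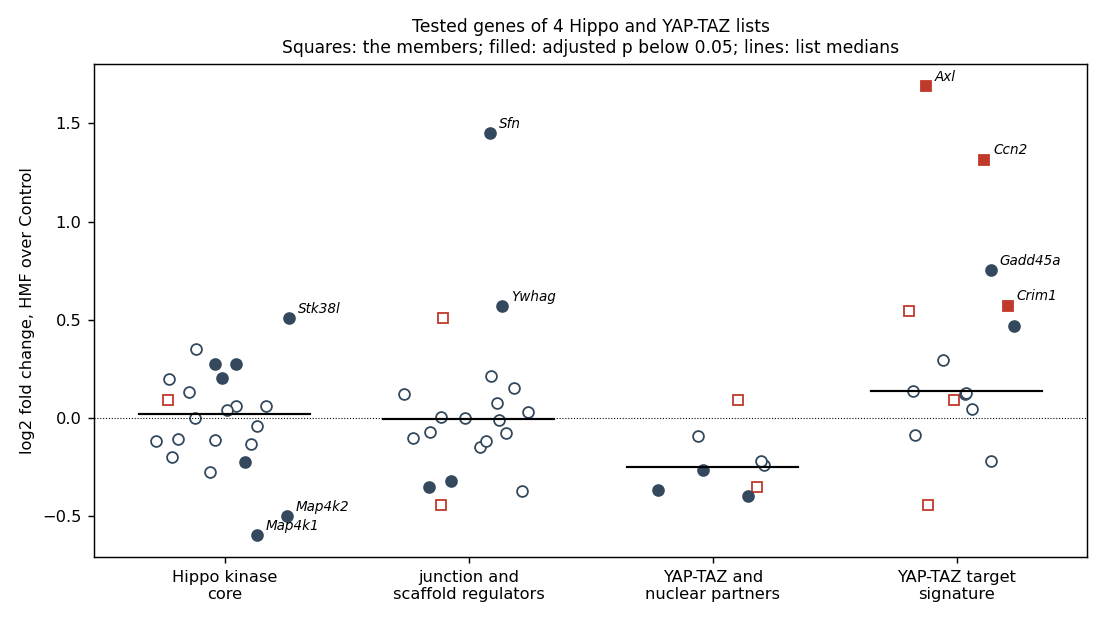
Log2 fold changes, HMF over Control (y axis), of the tested genes of 4 lists; squares are the genes described first, filled symbols have an adjusted p below 0.05 and lines are list medians. The list of nuclear partners has the lowest median (-0.25), the target signature the highest (0.14), and the other 2 lie near 0.

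The deposited pathway annotation places 155 genes in the Hippo signaling pathway, a broad list that includes Wnt, TGF-beta and cell cycle genes. Of its 112 tested genes 16 rose and 14 fell, 26.8%, close to the share among all tested genes (26.7%), with a median log2 fold change of 0.01. Only 5 of the 10 genes described here are in it, Yap1, Tead1, Lats2, Ajuba and Ccn2, and of these Ccn2 rose.

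Among genes with an established symbol and a mean log2 CPM of at least 1, those that deviated most like Ccn2 and Axl were sought. The measure was Pearson correlation of log2 CPM over the 8 libraries after subtracting each group's mean. It compares deviations within the groups and leaves out the difference between HMF and Control. The closest to Ccn2 were Slx1b (r = 0.983), Ccrl2 (r = 0.978) and Insrr (r = 0.965). Of these Slx1b did not pass (-0.17, adjusted p = 0.359). Ccrl2, an atypical chemoattractant receptor gene, rose by 3.47 ± 0.21 on the log2 scale (SE, adjusted p = 5.69e-07). It measured 37.2, 45.6, 40.0 and 68.2 CPM in HMF 1 to 4, against 3.62 to 5.13 CPM in Control. Insrr rose by 4.19 ± 0.40 (adjusted p = 2.13e-05), from 0.142 to 0.305 CPM in Control. The closest to Axl were Myh14 (r = 0.963), Ulbp1 (r = 0.958) and Supt3 (r = 0.957). Ulbp1 rose by 1.604, Myh14 fell by 0.75 and Supt3 did not pass (adjusted p = 0.113). With 8 libraries and so many genes compared, high values of r occur readily, so these are given as a description with no test.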

How the data were processed

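Read counts per gene, without normalization, stand in the deposited table beside FPKM of the 8 libraries, per the file headers. In the FPKM that the authors deposited, the count is divided by the library total and by 1 effective length per gene. The submitters' processing notes name Trimmomatic, HISAT2 2.0.5, HTSeq, DESeq2 and build mm10; what each did, which annotation was used and whether strand was counted are not stated in these sources. Groups were read from sample titles. After TMM scaling and edgeR's filterByExpr, 15082 genes remained; edgeR 4.0.16 (R 4.3.3) tested them by quasi-likelihood with group as the model and Benjamini-Hochberg adjustment over all. CPM is relative to TMM-scaled library size. Each SE was derived as |log2 fold change| divided by the root of F. The fit was tested on simulated counts. The 10 genes and the lists were chosen with earlier results of these data known. Genes named beyond the 10 were those past the test in each list (at most 8 a list) with Wwtr1, Lats1 and the Tead genes, plus 3 genes most like Ccn2 and 3 most like Axl; other genes given as not passing were picked from the lists after their values were seen. A gene that the rule takes is not reported here. Libraries held 13973961 to 19295358 counts. Taken over all tested genes together, no pair of libraries of a group differed by as little as sampling noise (lowest chi-square per degree of freedom 2.195). Libraries of a group thus differed beyond counting error. The part of counting error in the SE of a single scarce gene such as Ccn2 was not measured. Alternatives were RLE or library-size scaling, an absent or a stricter filter (CPM of 1 or more in 4 libraries), DESeq2 1.42.0, limma 3.58.1 on log2 FPKM with pseudocounts of 1 and 0.1, a block for replicate number, omission of each library, and an adjusted p below 0.01. Omitting HMF 4 and Control 1 together was added after seeing the data. Promoter sequences came from RefSeq (GRCm38.p6), matched by symbol. Figures were drawn in matplotlib 3.10.9 (Python 3.11.15).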

Additional observations from a re-analysis of the deposited data

Results flagged for a closer look

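In groups of 4 libraries, a library whose gap to its nearest neighbour takes more than 0.829 of the whole range stands apart, which chance alone gives in about 1 of 20 groups. Of 68 groups examined (34 named genes, HMF and Control each) 3 met this. Ctnna1 was lower in HMF 2, at 168 CPM, than in the other HMF libraries (183 to 184 CPM). Map4k4 was lower in Control 3, at 271 CPM, than in the other Control libraries (290.4 to 294 CPM). Ankrd2 was higher in Control 1, at 6.15 CPM, than in the other Control libraries (4.62 to 4.76 CPM). None of the 9 tested genes of the YAP-TAZ set met this, HMF 4 included.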

How the results depend on the processing

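All 8 libraries gave 4030 changed genes, and leaving out single libraries gave 3140 to 3804. At an adjusted p below 0.01 the number was 2288. Of the YAP-TAZ genes 3 were called, and 2 to 4 when single libraries were left out. Without a count filter 6 were called (Tead1, Ajuba and Amotl2 besides). Without both HMF 4 and Control 1, an alternative chosen after seeing the data, 5 were (Axl, Crim1, Tead1, Ajuba and Amotl2). Over all genes the first alternative called 3913 and the second 3801, against 4030 with the filter and all 8 libraries. The shares of all tested genes under these alternatives are not given here. The log2 fold change of Lats2, never called, ran from -0.18 to 0.21 when single libraries were left out and changed sign without HMF 4, without HMF 4 and Control 1 (-0.09) and with limma on log2 FPKM (-0.00129 with a pseudocount of 1, -0.0105 with 0.1); the cause was not tested. Of the 34 genes followed through every alternative, the other genes kept their sign. Axl (1.58 to 1.75) and Crim1 (0.46 to 0.66) were called in all 17 alternatives, Ccn2 in 8 (0.53 to 1.61). With library size alone the share of rises among called genes was 41.7%, against 51.4% with TMM, and on log2 FPKM with a pseudocount of 1 it was 41.5%.

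The replicate number as a block gave 2785 changed genes and 2 called YAP-TAZ genes, Axl and Crim1 (Ccn2 1.201, adjusted p = 0.115). Same-numbered libraries mostly did not deviate together (correlations of -0.27, -0.08, 0.23 and -0.32), and only HMF 3 correlated best with its own number. The highest correlation was that of HMF 4 with Control 1 (0.363). Whether same-numbered libraries shared a culture or batch is not stated in the labels and was not tested. Counts of 14 to 140 per library limit what can be said of Ccn2.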
